A study of Mus musculus with 2 samples.

Results

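Glycan-building transferases are Golgi enzymes that assemble the sugar chains of mucins, membrane proteins and lipids. They were followed here across the cell types of jejunal crypts from 2 male whole-body miR-375 knockout mice. The genes were chosen by symbol: polypeptide GalNAc-transferases (Galnt), core 1 synthase and its partner (C1galt1, C1galt1c1), branching enzymes (Gcnt), GlcNAc, GalNAc and galactose transferases (B3gnt, B4galnt, B3galt, B4galt), sialyltransferases (St3gal, St6gal), fucosyltransferases (Fut) and carbohydrate sulfotransferases (Chst). Of the 27998 genes in the count matrices, 85 carried such a symbol. Of these, 44 had at least 50 unique molecular identifiers (UMIs, each standing for 1 captured RNA molecule) over all annotated cells and were kept as members. The other 41 fell below that limit, 11 of them with 0 UMIs. The members nearest the limit were Chst11 with 55 UMIs and B3gnt9 with 59, and the genes just outside it were B3gnt8 with 47 and Fut1 with 40. Together the 44 members held 0.154% of the UMIs of the annotated cells. One member, C1galt1c1, is a chaperone (Cosmc) that core 1 synthase needs to fold, and not a transferase itself.

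The miR-375 knockout line was made with CRISPR/Cas9 in hybrid embryos of FVB and B6 mice and then backcrossed to B6 albino mice. Both mice were miR-375 knockouts of that line (strain label C57BL6/2J), 12 months old. Each gave 1 droplet library from crypts digested with dispase, called replicate 1 and replicate 2. The wild-type libraries of the study were not used here, so every comparison below is between cell types of knockout mice and none is between genotypes. The chemistry reads the 3′ ends of polyadenylated RNA and does not measure mature miR-375, so the deletion itself was not checked here.

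The sugars of an O-glycan are added in order. A Galnt enzyme places GalNAc on serine or threonine, C1galt1 extends it with galactose to core 1, Gcnt enzymes branch it, B3gnt and B4galt enzymes lengthen the arms, and sialic acid, fucose or sulfate caps them. Goblet cells make the densely O-glycosylated gel-forming mucin of the intestine, and enterocytes carry membrane mucins and glycolipids at the brush border. The same families also act on N-glycans, glycolipids and proteoglycans.

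The deposited tables kept 2082 cells of replicate 1 and 1193 of replicate 2, with 44017234 and 22163354 UMIs and medians of 16475 and 15232 UMIs per cell. The authors' annotation named 10 types: stem cells, transit-amplifying cells, secretory progenitors, goblet progenitors, goblet cells, Paneth cells, enteroendocrine cells, tuft cells, enterocytes and intraepithelial lymphocytes. Of 51 markers checked, 46 were highest in their own type in both mice, and the exceptions were Ascl2, Pcna, Mcm4, Stmn1 and Atoh1. Of these, Pcna, Mcm4 and Stmn1 were markers of transit-amplifying cells, and no marker was checked for goblet progenitors. The authors named clusters by marker scores, so this agreement is not independent of the naming. The smallest epithelial sums came from 20 enteroendocrine cells and 19 secretory progenitors of replicate 2, and the largest from 931 enterocytes of replicate 1. The libraries shared 0 cell barcodes. In Paneth cells 10 genes took 82.6% and 81.9% of the UMIs, so a level relative to all UMIs was low there for nearly every other gene. Levels are given as CPM (UMIs scaled to 1e6 UMIs of that type and mouse), replicate 1 first, so each pair of values shows the spread between the 2 mice.

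Tests used edgeR's quasi-likelihood method on the 18 sums of 9 epithelial types in 2 mice, with the mouse as a block, trimmed-mean (TMM) scaling and p-values adjusted over all 11013 genes tested. A gene is called where its adjusted p was under 0.05. Of the 44 members, 40 passed the count filter, and B4galnt4, B3gntl1, B3gnt9 and B3galt5 did not. The types were named by the authors from the expression of these same cells, so the p-values are smaller than those for types defined independently.

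Across the 9 epithelial types 37 of the 40 tested members differed, where 77.3% of all genes were called. The exceptions were Galnt11, B4galt3 and B4galt7. In both mice 18 of the 44 members had their highest epithelial level in goblet cells, 4 in enterocytes, 4 in enteroendocrine cells, 4 in tuft cells, 1 in stem cells and 1 in secretory progenitors, and for the remaining 12 the 2 mice did not give the same type. On the TMM scale used by the tests, which raises Paneth values most, 15 of the 40 tested members were highest in goblet cells in both mice and 3 (Fut4, B4galt1 and St3gal1) were highest in Paneth cells. The highest type was not counted over all genes, so these counts have no background. Summed over the 44 members, the level was 3109.7 and 2283 CPM in goblet cells, 2090.3 and 1843 in enterocytes and 779 and 722 in stem cells. A single gene, St3gal4, carried about as much of the enterocyte sum as all other members together, since without it enterocytes held 996 and 986 CPM and goblet cells 3035 and 2203.

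**Figure D1:**
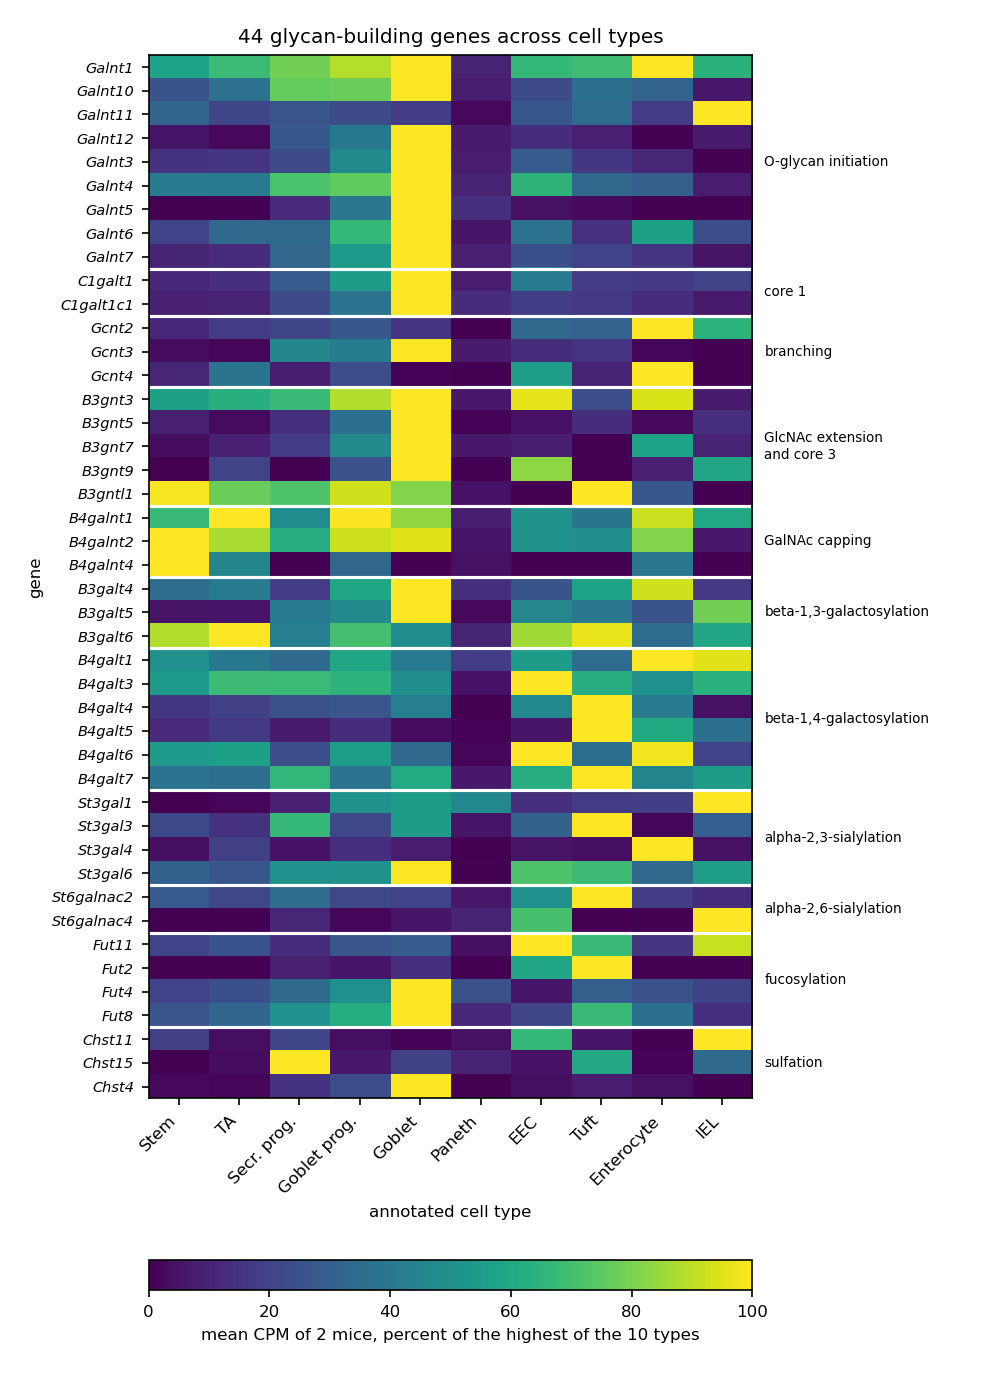
Mean CPM of the 2 mice for each of the 44 members (rows, grouped by enzymatic role) in 10 annotated cell types (columns), as a percentage of that gene's highest type. Most O-glycan initiation and core 1 genes peak in the goblet column, most beta-1,4-galactosylation genes peak in other columns, and the Paneth column is dark apart from St3gal1.

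Goblet cells held the broadest set of higher members. Against the mean of the other 8 epithelial types (the mean of their log2 levels), 26 of the 40 tested members were higher and 1 was lower, where 29.2% of all genes were called and 17.8% were called higher. The median log2 fold change was 1.61 over the tested members and -0.03 over all genes. With the 9 members that had 0 UMIs in both mice of some type set at 3 UMIs per empty library, the members' median was 1.04. The split of 26 to 1 was the same with DESeq2 size factors and with library size alone.

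Of 9 Galnt genes tested, 8 were higher in goblet cells than the mean of the other types, and only Galnt11 did not pass. The rise was not confined to goblet cells, since with TMM scaling 6 of the same 9 were called higher in Paneth cells and 0 lower. Of these 6, only Galnt5 was also called higher in Paneth cells with library size alone. Galnt1, 1 of the 8, had nearly equal mean levels in goblet cells and enterocytes, at 72.7 and 72.5 CPM. Galnt7, the Galnt gene with the most UMIs, measured 437 and 236 in goblet cells, 222 and 141 in goblet progenitors, 124 and 98.2 in secretory progenitors, 119 and 46.4 in enteroendocrine cells, 79.8 and 55.4 in tuft cells, 63.9 and 41.3 in enterocytes, 57.3 and 29.0 in transit-amplifying cells, 45.4 and 23.7 in stem cells and 43.0 and 16.3 in Paneth cells (CPM, replicate 1 then replicate 2). Goblet cells and their progenitors led in each mouse, and the lower goblet value of 236 was above every non-goblet value, including the 222 of goblet progenitors in replicate 1. On the TMM scale the Paneth values of Galnt7 were 276 and 135 against 441 and 249 in goblet cells, so these 2 types overlapped across mice.

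Galnt12 (chr4:47091909-47123070, plus strand, mm10) showed the widest range of the abundant Galnt genes. It measured 339 and 294 in goblet cells, 135 and 121 in goblet progenitors, 54.3 and 120.5 in secretory progenitors, 41.9 and 41.8 in enteroendocrine cells, 26.6 and 28.6 in tuft cells, 23.6 and 21.1 in Paneth cells, 21.9 and 13.1 in stem cells, 7.94 and 6.65 in transit-amplifying cells and 1.60 and 1.68 in enterocytes. Goblet cells did not overlap any other type, and enterocytes were the lowest in both mice. On the TMM scale Paneth cells were next after goblet cells in each mouse, at 152 and 174 against 342 and 310. Against the mean of the other types goblet cells were higher (log2 fold change 3.88 ± 0.12 SE, adjusted p = 1.18e-21), and enterocytes were lower (log2 fold change -4.72 ± 0.25 SE, adjusted p = 8.07e-17). A UMI of Galnt12 was found in 98.9% and 94.9% of goblet cells against 2.79% and 1.57% of enterocytes. After every cell was thinned to 5000 UMIs these shares were 77.9% and 71.7% against 0.753% and 1.05%.

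Galnt5 was rarer. It measured 50.8 and 22.4 CPM in goblet cells, 18.8 and 10.2 in goblet progenitors, 8.82 and 1.15 in Paneth cells and 0.0516 and 0.187 in enterocytes. On the TMM scale its Paneth values were 56.7 and 9.47 and its goblet values 51.1 and 23.5, which overlapped. No UMI was found in stem cells of either mouse, which allows up to 0.885 CPM there. Goblet cells were called higher than the mean of the other types (adjusted p = 5.57e-15). With the empty libraries of Galnt5 counted at 3 UMIs each, they were at least 16.7-fold above that mean. Galnt3 was 129 and 73.3 CPM in goblet cells and 12.0 and 9.72 in enterocytes. Galnt6 was 168 and 131 and 86.9 and 82.6 CPM in the same 2 types, a much smaller gap. Galnt4 measured 114 and 81.8 CPM in goblet cells, but it lies on the same strand within the Poc1b locus, so its counts are uncertain.

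Core 1 synthesis followed the same order, with both members higher in goblet cells. The chaperone C1galt1c1 measured 273 and 176 in goblet cells, 97.5 and 74.4 in goblet progenitors, 63.0 and 40.2 in secretory progenitors, 46.7 and 37.1 in enteroendocrine cells, 50.8 and 25.0 in tuft cells, 31.6 and 26.4 in enterocytes, 35.3 and 21.1 in Paneth cells, 26.8 and 15.9 in transit-amplifying cells and 23.5 and 18.1 in stem cells. C1galt1, the synthase itself, measured 213 and 97.0 CPM in goblet cells, 108 and 62.4 in goblet progenitors, 21.9 and 14.3 in stem cells and 24.2 and 27.9 in enterocytes. For C1galt1 the goblet value of replicate 2 was below the goblet progenitor value of replicate 1, so the 2 types overlapped across mice although goblet cells were higher within each mouse. On the TMM scale Paneth values of C1galt1c1 were 227 and 174 against 275 and 185 in goblet cells. Those of C1galt1 were 115 and 49.3 against 214 and 102. Paneth and goblet cells thus overlapped across mice for both members, and both were also called higher in Paneth cells.

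The 3 branching enzymes divided between 2 lineages. Gcnt3, which builds core 2 and core 4 branches on mucins, measured 286 and 227 in goblet cells, 117 and 116 in secretory progenitors, 105 and 112 in goblet progenitors, 31.4 and 46.4 in tuft cells, 48.3 and 18.6 in enteroendocrine cells, 23.9 and 13.3 in Paneth cells, 7.85 and 8.73 in stem cells, 3.30 and 4.67 in enterocytes and 4.03 and 3.67 in transit-amplifying cells. On the TMM scale Paneth cells were next after goblet cells in each mouse for Gcnt3, at 154 and 110 against 288 and 239. Goblet cells lay above all other types (log2 fold change 3.63 ± 0.13 SE, adjusted p = 1.28e-20), and enterocytes were near the bottom of the range (log2 fold change -3.32 ± 0.22 SE, adjusted p = 2.32e-14). Gcnt4, another core 2 enzyme, ran the other way with 21.2 and 32.3 CPM in enterocytes, 16.1 and 13.9 in enteroendocrine cells, 10.4 and 10.1 in transit-amplifying cells and 0 and 0.447 in goblet cells. Gcnt2, which adds I-antigen branches, measured 22.1 and 20.2 CPM in enterocytes and 4.49 and 1.79 in goblet cells. Neither Gcnt2 nor Gcnt4 had a UMI in Paneth cells, which allows up to 0.381 CPM. With Paneth libraries and other empty libraries counted at 3 UMIs, enterocytes were at least 6.82-fold higher than the mean of the other types for Gcnt4 (adjusted p = 1.31e-11) and at least 5.98-fold higher for Gcnt2 (adjusted p = 4.07e-12).

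Among the chain-extending GlcNAc transferases, all 3 tested members were higher in goblet cells. B3gnt3, which extends core 1, was the most abundant, at 21.2 and 31.3 in goblet cells, 17.7 and 32.5 in enteroendocrine cells, 16.8 and 32.7 in enterocytes, 16.9 and 29.4 in goblet progenitors, 13.0 and 22.3 in secretory progenitors, 12.1 and 20.8 in transit-amplifying cells, 7.29 and 22.4 in stem cells, 0 and 12.5 in tuft cells and 0.854 and 2.75 in Paneth cells. Its 2 mice differed in every type, with replicate 2 higher in all 9, so most types overlapped. B3gnt5, which starts lacto-series glycolipids, was sharper, with 17.2 and 14.8 CPM in goblet cells, 6.89 and 4.80 in goblet progenitors and 0.206 and 0.561 in enterocytes (log2 fold change 3.99 ± 0.38 SE, adjusted p = 4.78e-10). B3gnt7 was shared by both mature lineages. It measured 23.0 and 14.8 CPM in goblet cells, 10.7 and 11.2 in enterocytes, 1.66 and 1.75 in transit-amplifying cells and 0 in tuft cells, which allows up to 3.08 CPM. Goblet cells were at least 4.94-fold (adjusted p = 4.78e-10) and enterocytes at least 2.55-fold (adjusted p = 2.01e-07) above the mean of the other types.

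**Figure D2:**
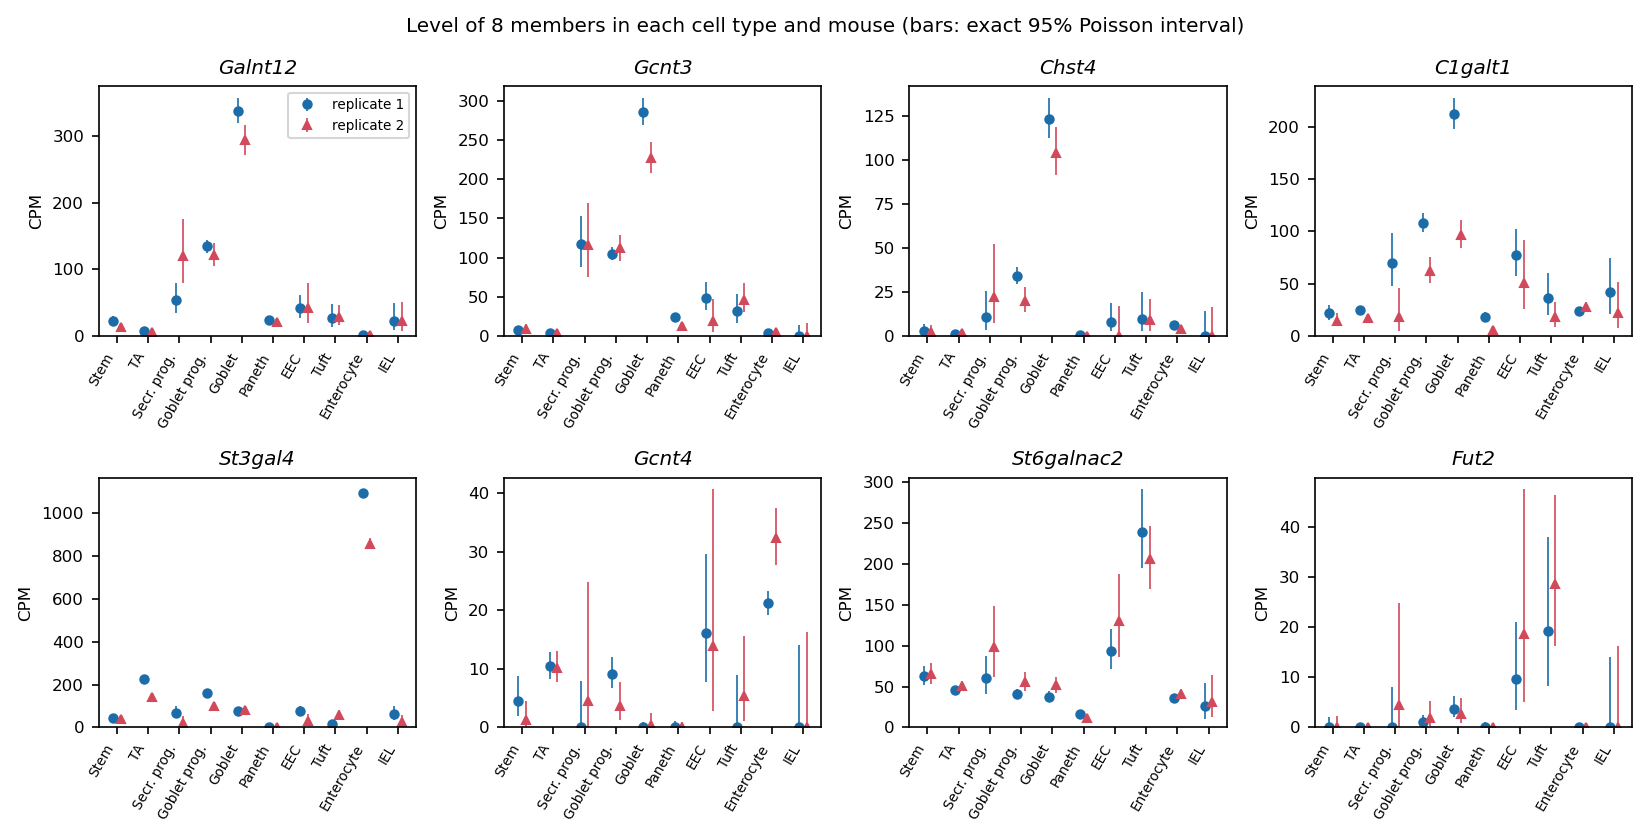
CPM of 8 members in each of 10 annotated types, with circles for replicate 1, triangles for replicate 2 and bars for the exact 95% Poisson interval, which covers counting error only. Galnt12, Gcnt3, Chst4 and C1galt1 peak in goblet cells, St3gal4 and Gcnt4 in enterocytes, and St6galnac2 and Fut2 in tuft cells.

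Of 3 sulfotransferases tested, Chst4 and Chst15 were called higher in goblet cells. Chst4, a GlcNAc sulfotransferase, measured 123 and 104 in goblet cells, 34.1 and 19.8 in goblet progenitors, 10.9 and 22.3 in secretory progenitors, 9.67 and 8.93 in tuft cells, 5.94 and 3.93 in enterocytes, 8.06 and 0 in enteroendocrine cells, 2.80 and 2.49 in stem cells, 1.30 and 1.75 in transit-amplifying cells and 0.284 and 0 in Paneth cells. Goblet cells exceeded every other type without overlap, and the difference from the mean of the other types was among the largest of the members (log2 fold change 4.91 ± 0.18 SE, adjusted p = 2.88e-20). Chst15, a chondroitin sulfotransferase, measured 5.55 and 0.894 CPM in goblet cells, 19.5 and 13.4 in secretory progenitors and 14.5 and 5.36 in tuft cells. The goblet call of Chst15 had an adjusted p of 0.0123. With empty libraries counted at 3 UMIs goblet cells were at least 1.26-fold above the mean of the other types for Chst15. The level was higher in replicate 1 and not in replicate 2. Chst15 lies over Fgfr2 on the same strand, and its counts are uncertain.

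The fucosyltransferases had 3 of 4 members higher in goblet cells. Fut8, which adds the core fucose of N-glycans, measured 119.5 and 88.5 in goblet cells, 75.0 and 66.1 in tuft cells, 79.5 and 49.2 in goblet progenitors, 69.5 and 35.7 in secretory progenitors, 41.4 and 34.6 in enterocytes, 33.1 and 34.6 in transit-amplifying cells, 31.4 and 23.1 in stem cells, 33.8 and 9.28 in enteroendocrine cells and 18.5 and 5.50 in Paneth cells. In CPM goblet cells were highest in each mouse and did not overlap another type, but on the TMM scale the Paneth values of Fut8 were 119 and 45.5 and overlapped the goblet values of 120.4 and 93.1. Fut4, an alpha-1,3 enzyme, was 31.5 and 25.9 CPM in goblet cells and at most 15.6 CPM in any other epithelial sum. That lead was reversed on the TMM scale, where Fut4 stood at 58.5 and 41.7 in Paneth cells and 31.7 and 27.3 in goblet cells. Fut2, the alpha-1,2 enzyme that makes H antigen on secretions, was called higher in goblet cells from only 3.70 and 2.68 CPM there. Its larger values lay in tuft and enteroendocrine cells.

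The single member lower in goblet cells was B4galt5, a lactosylceramide synthase, with 2.64 and 3.58 CPM against 50.4 and 59.3 in enterocytes and 53.2 and 127 in tuft cells (log2 fold change -1.84 ± 0.38 SE, adjusted p = 0.000273). On the TMM scale its goblet values of 2.66 and 3.76 overlapped 4.09 and 3.21 in enteroendocrine cells and 3.11 and 6.93 in secretory progenitors.

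Enterocytes showed a more even split. Against the mean of the other 8 types 14 tested members were higher and 12 lower, where 54.5% of all genes were called, 31.3% higher and 23.2% lower. The members' share of calls was thus near that of all genes. By role, 4 of 6 beta-1,4-galactosyltransferases were higher, and of 9 initiation genes 2 were higher and 4 lower. That mean includes goblet cells and their progenitors. Against transit-amplifying cells alone, 4 of 6 beta-1,4-galactosyltransferases were again higher, but 3 initiation genes were higher and 1 lower. The 2 core 1 members were lower than the mean of the other types and higher than transit-amplifying cells.

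St3gal4, which caps galactose with alpha-2,3-linked sialic acid, had the most UMIs of all members, 30283. It measured 1094 and 857 in enterocytes, 224 and 142 in transit-amplifying cells, 162 and 101 in goblet progenitors, 74.8 and 80.0 in goblet cells, 75.7 and 27.9 in enteroendocrine cells, 69.5 and 22.3 in secretory progenitors, 43.2 and 39.3 in stem cells, 16.9 and 58.9 in tuft cells and 1.42 and 0 in Paneth cells. Enterocytes were above every other type in both mice by a wide margin (log2 fold change 4.56 ± 0.22 SE, adjusted p = 1.56e-08). A UMI was found in 100% and 99.0% of enterocytes and in 57.8% and 53.6% of goblet cells, and after thinning to 5000 UMIs in 98.6% and 91.6% against 27.5% and 32.6%.

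No beta-1,4-galactosyltransferase had its highest mean level in goblet cells. B4galt6, the second lactosylceramide synthase, measured 67.7 and 88.2 in enteroendocrine cells, 73.1 and 80.0 in enterocytes, 42.5 and 45.5 in transit-amplifying cells, 39.3 and 48.0 in goblet progenitors, 30.3 and 54.2 in stem cells, 16.9 and 39.3 in tuft cells, 28.0 and 25.0 in goblet cells, 28.2 and 8.93 in secretory progenitors and 0 and 2.06 in Paneth cells. Enteroendocrine cells and enterocytes overlapped at the top in CPM. On the TMM scale enterocytes led in both mice, at 72.3 and 74.6 against 43.0 and 60.9 in enteroendocrine cells. B4galt5 differed from B4galt6 by a tuft peak in mean CPM, at 53.2 and 127 beside 50.4 and 59.3 in enterocytes (log2 fold change 2.73 ± 0.18 SE, adjusted p = 1.49e-14 for enterocytes). On the TMM scale its tuft values were 35.1 and 89.3 and overlapped 49.9 and 55.2 in enterocytes. B4galt1, the classic galactosyltransferase of N-glycans, was 32.3 and 39.3 CPM in enterocytes and 17.4 and 12.1 in goblet cells. B4galt3 and B4galt7 gave no call among the types, and B4galt3 ranged from 24.1 and 20.6 CPM in goblet cells to 35.4 and 55.7 in enteroendocrine cells outside Paneth cells and secretory progenitors.

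B4galnt1, a glycolipid GalNAc-transferase, measured 181 and 186 in transit-amplifying cells, 181 and 184 in goblet progenitors, 149.9 and 187 in enterocytes, 153 and 153 in goblet cells, 107 and 139.6 in stem cells, 119 and 69.6 in enteroendocrine cells, 97.7 and 80.3 in secretory progenitors, 75.0 and 67.9 in tuft cells and 15.9 and 14.4 in Paneth cells. It was called higher in enterocytes (log2 fold change 0.75 ± 0.12 SE, adjusted p = 2.48e-06) and in goblet cells (log2 fold change 0.72 ± 0.12 SE, adjusted p = 2.65e-05) and lower in tuft cells (adjusted p = 1.69e-05). Goblet cells and enterocytes overlapped, and their direct comparison did not pass (log2 fold change -0.03 ± 0.16 SE, adjusted p = 0.915). The gene overlaps Slc26a10 on the other strand. B3galt4, which makes ganglioside GM1, measured 29.3 and 19.2 in goblet cells, 27.1 and 17.9 in enterocytes, 16.8 and 12.0 in goblet progenitors, 12.1 and 16.1 in tuft cells, 11.5 and 8.74 in transit-amplifying cells, 8.41 and 8.73 in stem cells, 8.06 and 4.64 in enteroendocrine cells, 8.69 and 0 in secretory progenitors and 3.13 and 3.67 in Paneth cells. Its goblet and enterocyte values overlapped between the mice. On the TMM scale its Paneth values were 20.1 and 30.3. They overlapped 29.6 and 20.2 in goblet cells and 26.8 and 16.7 in enterocytes.

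Among the 12 members lower in enterocytes were Galnt12, Gcnt3, B3gnt5 and Galnt3, whose values are given above, and Galnt3 differed least of these 4 (log2 fold change -1.21 ± 0.19 SE, adjusted p = 2.48e-06). St3gal3 was 0.258 and 0.187 CPM in enterocytes and 5.29 and 11.2 in goblet cells (log2 fold change -3.53 ± 0.64 SE, adjusted p = 2.24e-05). Chst11, a chondroitin sulfotransferase with 55 UMIs in all, was 0 and 0.187 CPM in enterocytes. The stricter cell filter held every type to at least 2500 genes and at most 10% mitochondrial UMIs. Under it the enterocyte log2 fold change of B3gnt5 turned to 0.25 (adjusted p = 0.867). Mean B3gnt5 was then 0 CPM in secretory progenitors, enteroendocrine cells and Paneth cells, from 2.17, 0.806 and 0.142 before. In enterocytes it was 0.684 CPM, from 0.384 before. Which types moved the change was not tested. That filter kept 145 of 931 enterocytes of replicate 1 and 289 of 382 of replicate 2.

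The direct comparison of goblet cells with enterocytes separated the members into 21 higher and 6 lower in goblet cells, where 43.7% of all genes were called, 19.8% higher and 23.9% lower. The median was 1.23 for members and -0.03 for all genes. The 6 with the largest positive change were Galnt5, Galnt12, Gcnt3, B3gnt5, Fut2 and Chst15. The change was log2 fold change 7.65 ± 0.27 SE, adjusted p = 3.75e-20 for Galnt12 and log2 fold change 6.18 ± 0.24 SE, adjusted p = 4.59e-19 for Gcnt3. The 6 lower members were Gcnt4, B4galt5, St3gal4, Gcnt2, B4galt6 and B4galt1. Gcnt4 changed most (log2 fold change -6.93 ± 0.68 SE, adjusted p = 1.18e-09), from 1 UMI in all goblet cells of both mice, followed by B4galt5 (log2 fold change -4.06 ± 0.32 SE, adjusted p = 2.78e-12) and St3gal4 (log2 fold change -3.55 ± 0.37 SE, adjusted p = 1.63e-05). By role, 7 of 9 Galnt genes were higher in goblet cells, and 3 of 6 beta-1,4-galactosyltransferases were lower.

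**Figure D3:**
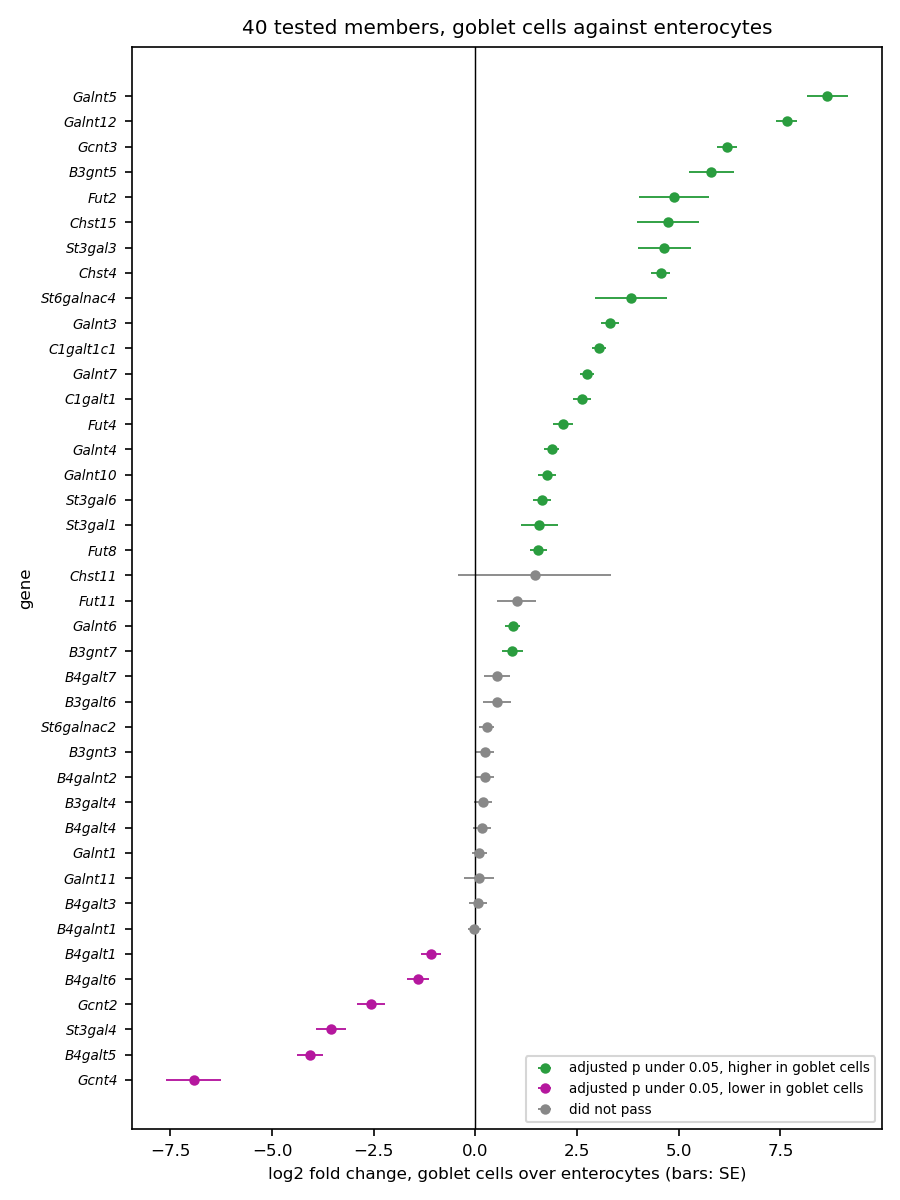
Log2 fold change of goblet cells over enterocytes for the 40 tested members (points, with bars for the SE), ordered by size. Green points (21) passed the test as higher in goblet cells, purple points (6) as lower, and grey points did not pass.

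Promoter sequences were available for 33 of the 44 members. Those of 4 members are shown, chosen among members with a single listed start as the 2 with the largest and the 2 with the smallest fold change of goblet cells over enterocytes, so that the goblet and enterocyte ends of the comparison can be read side by side. Each run covers 250 bases before and 50 after the RefSeq start on GRCm38.p6, 5′ to 3′ on the gene's strand. Capitals mark matches, on either strand, to the E-box CAGCTG (a palindrome, bound by basic helix-loop-helix proteins), TTTATNG (a caudal homeobox motif) or CAAAGTNCA (an Hnf4 motif).

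Galnt5, chr2:57997905-57998204 (+ strand): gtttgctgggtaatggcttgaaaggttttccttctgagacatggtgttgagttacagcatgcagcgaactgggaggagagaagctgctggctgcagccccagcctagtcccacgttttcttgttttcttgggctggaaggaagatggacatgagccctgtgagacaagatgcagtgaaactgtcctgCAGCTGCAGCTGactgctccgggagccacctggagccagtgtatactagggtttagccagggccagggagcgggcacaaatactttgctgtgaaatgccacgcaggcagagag
B3gnt5, chr16:19759984-19760283 (+ strand): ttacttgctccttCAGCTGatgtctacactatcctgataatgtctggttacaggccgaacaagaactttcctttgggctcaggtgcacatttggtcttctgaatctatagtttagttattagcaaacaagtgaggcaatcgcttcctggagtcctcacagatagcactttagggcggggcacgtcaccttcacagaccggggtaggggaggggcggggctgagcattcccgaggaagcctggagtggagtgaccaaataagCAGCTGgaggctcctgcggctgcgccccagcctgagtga
St3gal4, chr9:35116815-35117114 (- strand): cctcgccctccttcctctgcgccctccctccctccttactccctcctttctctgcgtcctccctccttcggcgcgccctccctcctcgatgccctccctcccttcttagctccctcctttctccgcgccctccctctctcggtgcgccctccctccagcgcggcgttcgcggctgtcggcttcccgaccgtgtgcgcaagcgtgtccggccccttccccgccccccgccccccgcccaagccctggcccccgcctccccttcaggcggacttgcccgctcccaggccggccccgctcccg
B4galt5, chr2:167349129-167349428 (- strand): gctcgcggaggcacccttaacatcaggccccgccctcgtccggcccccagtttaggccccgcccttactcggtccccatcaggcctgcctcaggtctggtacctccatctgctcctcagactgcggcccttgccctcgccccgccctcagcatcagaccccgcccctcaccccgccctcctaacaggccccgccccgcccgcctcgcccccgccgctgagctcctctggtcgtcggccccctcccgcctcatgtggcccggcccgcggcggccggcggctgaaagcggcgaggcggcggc

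The 2 goblet-high promoters held CAGCTG, 2 adjacent copies in Galnt5 and 2 separate copies in B3gnt5, and held 54.3% and 53.3% G or C. The 2 enterocyte-high promoters held none of the 3 motifs in this window and were richer in G and C, at 74.0% for St3gal4 and 75.0% for B4galt5. The share of G and C was not computed for other promoters, so this contrast has no background. The St3gal4 and Galnt5 windows lie inside the GENCODE genes, whose 5′ ends are at 35119268 and 57997884. Which start these cells used was not tested. Over all annotated genes with such a window, 18.3% held CAGCTG, 12.5% TTTATNG and 1.64% CAAAGTNCA. Among members, CAGCTG was found in 4 of 15 genes higher in goblet cells and 2 of 5 higher in enterocytes that had a window, so the shown contrast in motif is not one of the 2 groups. These matches describe letters and not binding.

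Mature cells were then set against their precursors. Goblet cells exceeded goblet progenitors for 23 of 40 tested members and were lower for 2, where 29.1% of all genes were called and 16.0% were called higher. With library size alone the split was 17 higher and 2 lower while the median of all genes moved to -0.49. Without the mouse as a block 12 members were called. Chst4 rose from 34.1 and 19.8 to 123 and 104 CPM (log2 fold change 2.55 ± 0.22 SE, adjusted p = 1.21e-09), and C1galt1c1 from 97.5 and 74.4 to 273 and 176 (log2 fold change 1.87 ± 0.17 SE, adjusted p = 2.41e-09). Galnt5 rose from 18.8 and 10.2 to 50.8 and 22.4 CPM (log2 fold change 1.87 ± 0.30 SE, adjusted p = 1.66e-05) and B3gnt5 from 6.89 and 4.80 to 17.2 and 14.8 (log2 fold change 1.96 ± 0.43 SE, adjusted p = 0.000741). For all 4 the pairs did not overlap. St3gal3 (log2 fold change 2.07 ± 0.58 SE, adjusted p = 0.00694) and Chst15 (log2 fold change 1.99 ± 0.67 SE, adjusted p = 0.0239) were also higher, from few UMIs, with the mice overlapping for both. The 2 that fell were Gcnt4, from 9.12 and 3.60 to 0 and 0.447 CPM (log2 fold change -4.74 ± 0.94 SE, adjusted p = 0.000281), and B4galt5, from 7.82 and 15.6 to 2.64 and 3.58 (log2 fold change -1.29 ± 0.42 SE, adjusted p = 0.0187).

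Enterocytes exceeded transit-amplifying cells for 19 of 40 tested members and were lower for 3, where 51.7% of all genes were called and 29.1% were called higher. Scaled by library size alone, the split was 14 higher and 5 lower with an all-gene median of -0.35, and without the block 13 members were called. St3gal4 rose from 224 and 142 to 1094 and 857 CPM (log2 fold change 2.84 ± 0.35 SE, adjusted p = 5.28e-05) and B4galt5 from 10.9 and 19.6 to 50.4 and 59.3 (log2 fold change 2.33 ± 0.21 SE, adjusted p = 1.21e-10). Gcnt2 rose from 5.21 and 2.10 to 22.1 and 20.2 CPM (log2 fold change 2.91 ± 0.28 SE, adjusted p = 4.2e-10) and B3gnt7 from 1.66 and 1.75 to 10.7 and 11.2 (log2 fold change 3.08 ± 0.33 SE, adjusted p = 4.71e-09). St3gal1, which sialylates core 1, rose from 0.118 and 0.35 to 2.38 and 2.06 CPM (log2 fold change 3.61 ± 0.70 SE, adjusted p = 7.7e-05). Chst4, from 1.30 and 1.75 to 5.94 and 3.93, also passed (log2 fold change 2.20 ± 0.35 SE, adjusted p = 4.01e-06). The 3 lower members were Galnt12 (log2 fold change -1.72 ± 0.31 SE, adjusted p = 1.97e-05), St3gal3 (log2 fold change -2.12 ± 0.73 SE, adjusted p = 0.0156) and B3galt6 (log2 fold change -1.10 ± 0.27 SE, adjusted p = 0.000973), the last a galactosyltransferase of the proteoglycan linker.

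Of the 40 members, 16 passed in both lineage comparisons, where 20.5% of all genes did. Of these, 12 rose in both, where 8.58% of all genes did. The other 4 moved in opposite directions, where 3.95% of all genes did: Galnt12 and St3gal3 rose to goblet cells and fell to enterocytes, and Gcnt4 and B4galt5 rose to enterocytes and fell to goblet cells. The 2 comparisons use separate sums from the same mice.

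**Figure D4:**
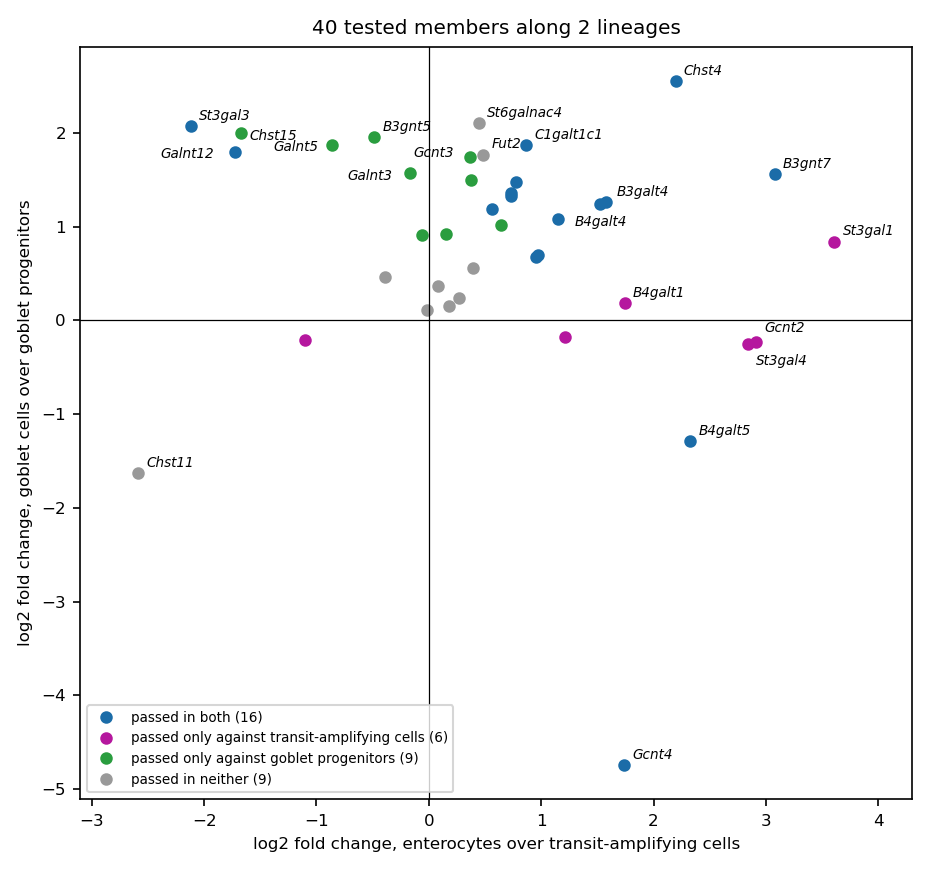
Log2 fold change of enterocytes over transit-amplifying cells (x axis) and of goblet cells over goblet progenitors (y axis) for the 40 tested members, coloured by which comparison each passed. The upper left and lower right areas hold the 4 members that passed in opposite directions, with Gcnt4 lowest on the y axis.

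Tuft cells were the highest epithelial type for St6galnac2 and Fut2. Against the mean of the other 8 types 6 members were higher and 9 lower, where 16.0% of all genes were called, 10.0% higher and 5.98% lower. With library size alone the split was 10 higher and 2 lower, and the median of all genes moved from -0.01 to 0.61. St6galnac2, which adds sialic acid to the first GalNAc of an O-glycan, measured 239 and 205 in tuft cells, 93.5 and 130.0 in enteroendocrine cells, 60.8 and 98.2 in secretory progenitors, 62.8 and 65.5 in stem cells, 41.3 and 55.8 in goblet progenitors, 46.2 and 50.9 in transit-amplifying cells, 37.3 and 51.4 in goblet cells, 35.9 and 41.3 in enterocytes and 16.2 and 11.9 in Paneth cells. Tuft cells exceeded all other types without overlap (log2 fold change 1.58 ± 0.16 SE, adjusted p = 2.95e-09). On the TMM scale they did so too, at 158 and 145, but Paneth cells were next in each mouse, at 104 and 98.5. Fut2 measured 19.3 and 28.6 in tuft cells, 9.67 and 18.6 in enteroendocrine cells, 3.70 and 2.68 in goblet cells, 0 and 4.46 in secretory progenitors, 1.12 and 1.80 in goblet progenitors, 0 and 0.175 in transit-amplifying cells, 0.103 and 0 in enterocytes, 0 and 0 in stem cells and 0 and 0 in Paneth cells. It rested on 67 UMIs in all, and tuft cells were at least 10.1-fold above the mean of the other types (adjusted p = 5.09e-07). B4galt4 measured 53.2 and 44.7 CPM in tuft cells, 22.4 and 17.6 in enterocytes and 0 in Paneth cells, at least 3.28-fold above the mean of the others in tuft cells (adjusted p = 1.75e-06). B4galt5 followed (log2 fold change 2.93 ± 0.26 SE, adjusted p = 2.73e-10). Galnt6, at 24.2 and 17.9 CPM, was among the members lower in tuft cells (log2 fold change -1.94 ± 0.29 SE, adjusted p = 4.94e-06).

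Enteroendocrine cells had 6 members higher and 5 lower, where 21.6% of all genes were called, 13.5% higher and 8.12% lower. The members' share, 27.5%, was near that background. With library size alone the split was 11 higher and 0 lower and the median of all genes moved from 0.03 to 0.71. The summed intraepithelial lymphocyte markers stood at 1263 CPM in the 20 enteroendocrine cells of replicate 2 and at 3.22 CPM in the 54 of replicate 1, against 18207 and 10012 in lymphocytes. Beside these values, St6galnac4, which makes disialylated core 1, measured 20.9 and 37.1 CPM in enteroendocrine cells, 15.2 and 66.5 in lymphocytes and at most 8.69 in any other epithelial sum. On the TMM scale it overlapped Paneth cells, at 13.3 and 25.7 in enteroendocrine and 34.7 and 20.8 in Paneth cells. Chst11 measured 16.1 and 4.64 CPM in enteroendocrine cells and 26.7 and 4.44 in lymphocytes. Fut11 measured 16.1 and 18.6 and 22.8 and 8.87 CPM in the same types.

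With the replicate 2 enteroendocrine sum left out, an alternative chosen after seeing these markers, 7 of 42 tested members were called, 4 higher and 3 lower. St6galnac4 (log2 fold change 4.03, adjusted p = 0.00105), Chst11 (3.82, adjusted p = 0.00322), Fut2 (4.08, adjusted p = 0.0137) and Gcnt4 (2.72, adjusted p = 0.0432) passed by edgeR's test, in which the lone enteroendocrine sum is assumed to vary like the sums of the other types. The calls of Fut11 (1.70, adjusted p = 0.112), B4galt6 (0.85, adjusted p = 0.235), Galnt10 (-1.11, adjusted p = 0.136) and B4galnt1 (-0.45, adjusted p = 0.165) were lost. The 5 lower members of the full fit were Fut4, Fut8, Galnt10, C1galt1c1 and B4galnt1, and Fut8 measured 33.8 and 9.28 CPM (log2 fold change -1.44 ± 0.33 SE, adjusted p = 0.0013).

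Paneth cells gave a result that turned on scaling. With TMM scaling 19 members were higher and 6 lower than the mean of the other types, where 27.0% of all genes were called, 15.5% higher. Scaled by library size alone, 3 were higher and 32 lower, and the median of all genes moved from -0.04 to -3.20, since the TMM factors of the Paneth sums were 0.156 and 0.121. Only the higher values of St6galnac4, St3gal1 and Galnt5 passed under both. St3gal1 measured 7.40 and 3.90 CPM in Paneth cells, 6.08 and 7.15 in goblet cells and 0 in stem cells. Counting empty libraries at 3 UMIs, Paneth cells were at least 19.1-fold higher on the TMM scale (adjusted p = 3.57e-10). At the other end St3gal4, at 1.42 and 0 CPM, and St3gal6, at 0 and 0.917 CPM, were lower under both scalings (log2 fold change -4.05 ± 0.76 SE, adjusted p = 0.00255 for St3gal4 and log2 fold change -3.14 ± 0.56 SE, adjusted p = 5.46e-05 for St3gal6). B4galt4, Gcnt2, Gcnt4 and Fut2 had 0 UMIs in Paneth cells of both mice. Thinning to 5000 UMIs per cell left 8 of 33 tested members called and the stricter cell filter, which kept 2 and 15 Paneth cells and so dropped the replicate 1 sum, left 7 of 40.

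Stem cells lay at the low end. By edgeR 0 of 40 tested members were called higher and 14 were lower, where 25.6% of all genes were called and 10.1% were called lower. Scaled by library size alone, 2 were higher and 10 lower, with an all-gene median of 0.40, and without the block 7 were called. At an unadjusted p under 0.05 1 member was higher, and DESeq2 also called 0 higher, with 15 lower. Galnt7 was 45.4 and 23.7 CPM (log2 fold change -1.67 ± 0.17 SE, adjusted p = 1.66e-08) and Gcnt3 7.85 and 8.73 CPM (log2 fold change -2.36 ± 0.27 SE, adjusted p = 8.66e-08). Galnt5, St3gal1, Chst15 and Fut2 had 0 UMIs in the 139 and 117 stem cells, each allowing up to 0.885 CPM, and no fold is given for them. B4galnt4, which was not tested, was the member highest in stem cells in both mice, at 3.92 and 2.49 CPM.

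A pair of lists of related genes were read in the same fits. The first held enzymes and Golgi carriers that supply sugar nucleotides and sulfate donor, 23 of them tested. In goblet cells 20 were higher and 1 lower, beside 17.8% and 11.4% of all genes, with the sulfate donor synthase Papss2 (log2 fold change 2.21 ± 0.47 SE, adjusted p = 0.000895) and the sialic acid synthase Nans (log2 fold change 2.15 ± 0.11 SE, adjusted p = 2.17e-16) among the largest changes. The lower one was galactokinase, Galk1 (log2 fold change -0.60 ± 0.17 SE, adjusted p = 0.0079), and the smallest rises among calls were those of the carriers Slc35b3 and Slc35b2. In enterocytes 8 were higher and 5 lower, 56.5% of the list and near the 54.5% of all genes, with Papss2 highest (log2 fold change 5.61 ± 0.23 SE, adjusted p = 2.37e-15), then the carrier Slc35d2 (log2 fold change 2.95 ± 0.40 SE, adjusted p = 2.61e-07) and fucokinase, Fuk (log2 fold change 1.52 ± 0.25 SE, adjusted p = 6.33e-06). The CMP-sialic acid carrier Slc35a1 was the lowest (log2 fold change -1.26 ± 0.19 SE, adjusted p = 1.95e-06), followed by Slc35a2 and Nans. Goblet cells exceeded goblet progenitors for 17 of the 23, beside 16.0% of all genes, and enterocytes exceeded transit-amplifying cells for 15, beside 29.1%.

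The second list held 10 tested mucus proteins and membrane mucins. Mucins are heavily O-glycosylated, whereas Agr2 is a disulfide isomerase of the endoplasmic reticulum and Zg16 and Tff3 are small secreted proteins. In goblet cells 8 were higher and 1 lower, beside 17.8% and 11.4% of all genes. Zg16 (log2 fold change 11.03 ± 1.13 SE, adjusted p = 0.000194), Agr2 (log2 fold change 7.23 ± 0.98 SE, adjusted p = 0.000541) and Clca1 (log2 fold change 7.19 ± 0.34 SE, adjusted p = 3.83e-07) changed most, and the membrane mucin Muc4 was lower (log2 fold change -1.83 ± 0.43 SE, adjusted p = 0.00202). The smallest rises were those of Muc13 and Muc3a. In enterocytes 2 were higher, the membrane mucins Muc3 (log2 fold change 4.11 ± 0.18 SE, adjusted p = 4.74e-15) and Muc13 (log2 fold change 0.86 ± 0.26 SE, adjusted p = 0.0202), and 4 were lower, Agr2, Tff3, Muc3a and Muc2, so that 6 of the 10 were called, beside 54.5% of all genes. Several of these mucus genes are goblet markers by which such cells are commonly named.

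The share of members listed as differing between the 2 mice, 9.09%, was near that of all genes. A member was listed as differing where 1 mouse was at least 2-fold above the other, in the same direction, in at least 5 of the 9 epithelial types, and 4 of 44 members were, beside 9.15% of the 11758 genes with at least 50 UMIs. B4galnt2, which makes the Sda antigen, was higher in replicate 1 in all 9 types, at 41.3 against 7.34 CPM over the epithelium, or 5.62-fold. By type it measured 57.2 and 6.23 in stem cells, 51.3 and 8.94 in goblet cells, 50.3 and 8.40 in goblet progenitors, 46.4 and 8.92 in transit-amplifying cells, 41.1 and 10.5 in enterocytes, 26.1 and 13.4 in secretory progenitors, 32.2 and 0 in enteroendocrine cells, 24.2 and 7.14 in tuft cells and 2.84 and 0.688 in Paneth cells. The gap was smallest in secretory progenitors. Galnt11 was also higher in replicate 1 in all 9 types, at 8.55 against 3.42 CPM. Galnt7 and C1galt1c1 were higher in replicate 1 in all 9 types too but did not meet the rule. Nor did St3gal4, Galnt5 and B3gnt9, which were 2.09-fold, 2.22-fold and 2.14-fold higher in replicate 1 over the epithelium. B3galt5 was higher in replicate 1, at 2.38 against 0.638 CPM, and St3gal3 in replicate 2, at 3.74 against 1.19 CPM. There is 1 knockout mouse behind each value, so no test of the difference was made, and the animal and its library cannot be told apart.

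**Figure D5:**
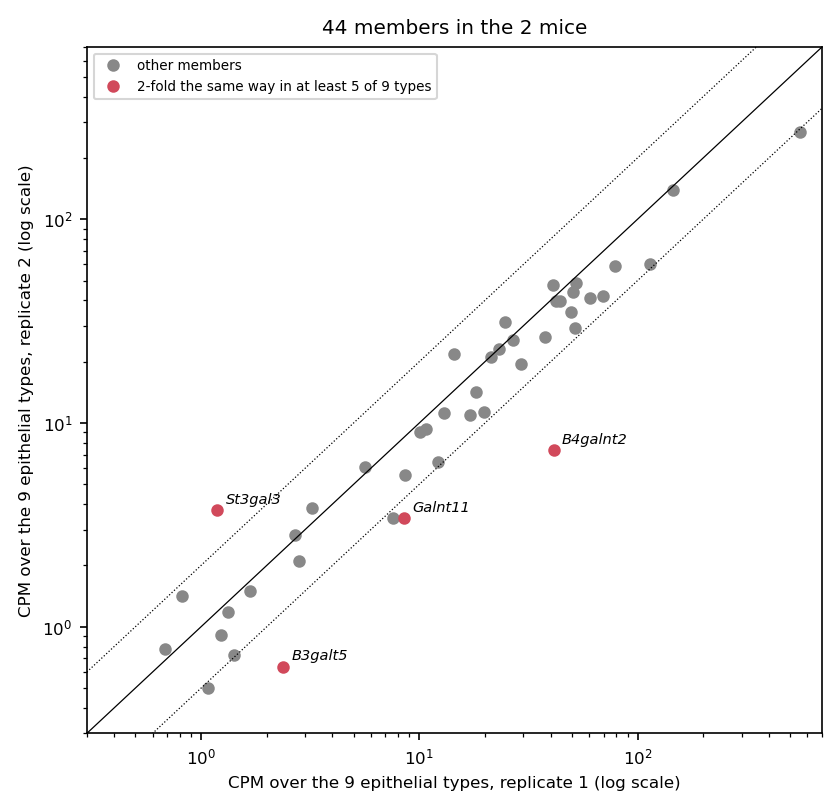
CPM of the 44 members over the 9 epithelial types in replicate 1 (x axis) and replicate 2 (y axis), both on log scales, with a solid line at equality and dotted lines at 2-fold. The 4 red points are the listed members, and B4galnt2 lies farthest from the line.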

How the data were processed

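Crypt cells of 2 miR-375 knockout mice were profiled with the 10x Genomics 3′ kit. The authors aligned reads to mm10 with Cell Ranger 3.0.1, and the deposited matrices hold raw UMI counts per gene and barcode. Ambient RNA was removed with SoupX per the methods, but to which deposited file this applies is not given in the sources used here. The authors discarded doublets called by scDblFinder and cells with few detected genes or a high mitochondrial share, clustered the rest in Seurat and named clusters by marker module scores. The deposited cell table gives the cluster names, the mitochondrial percent and the UMI counts per cell. A second deposited table of normalised values, scores from sctransform, was not used, nor were 2937 cell columns of another series.

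The 3275 annotated cells were matched by barcode to the library matrices. UMI totals were within 0.1% of the cell table for 2067 of 2082 and 1167 of 1193 cells, and the largest difference was 262 UMIs. Counts were summed per mouse and type, in all sums of at least 10 cells, and tested with edgeR 4.0.16 (filterByExpr, TMM, glmQLFit, 8 residual degrees of freedom, Benjamini-Hochberg adjustment over 11013 genes). Each mouse gave every type, so the mouse is a true pairing and was a block. Intervals are exact 95% Poisson intervals, and a count of 0 allows up to 3 UMIs. Intervals cover counting error only. DESeq2 1.42.0 was an alternative.

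Positions are from GENCODE on mm10 and promoters from RefSeq on GRCm38.p6. Genes named per comparison are the 6 largest and 6 smallest called changes with the same sign in both mice, plus the member with most UMIs in each role. The members, lists and tests were chosen with earlier results of these data known. The E-box and other motifs, and the enteroendocrine alternative, were chosen after values were seen. One gene of the sugar nucleotide list is counted there but its values are not reported here.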

Additional observations from a re-analysis of the deposited data

How the results depend on the processing

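Thinning every cell to 5000 UMIs left 33 members testable and gave 8 called members in Paneth cells, 7 in enteroendocrine cells, 7 in tuft cells and 8 in stem cells. The stricter cell filter gave 7 in Paneth cells. Without the replicate block the counts were 7 in enteroendocrine cells, 9 in tuft cells, 7 in stem cells, 13 for enterocytes against transit-amplifying cells and 12 for goblet cells against goblet progenitors. Leaving out the enteroendocrine sum of replicate 2 gave 7 in enteroendocrine cells. The other totals of called members stayed within 1.5 times the reported ones under every alternative run, but splits by direction moved more: the 1 member lower in goblet cells became 3 by DESeq2 and 2 after thinning or without Paneth cells, and library size alone changed the splits given with the results. Counted by mean level, 20 members peaked in goblet cells without replicate 2 and 19 without replicate 1. At a fold of 1.5 between the mice 11 members were listed in place of 4, beside 26.3% of all genes. With library size alone the Paneth log2 fold changes of Chst11 and Fut4 turned to -0.38 and -0.28 and the enteroendocrine change of B4galnt1 to 0.034, and under the stricter filter the enterocyte change of B3gnt5 turned to 0.25. The cause was not tested. Leaving out a mouse leaves 1 sum per type and no test. The rule for naming genes required the same sign in both mice, so the direction says nothing here, and in size 54 of 89 named changes moved by more than the SD between the mice without replicate 1 and 45 of 89 without replicate 2. Members such as Fut2, Chst11 and Chst15 rest on under 100 UMIs, and small changes in them were not detectable at this depth.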

Other observations

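The intraepithelial lymphocytes, 50 and 18 cells, were outside the epithelial tests. Galnt11 was highest there of all 10 types, at 34.3 and 31.1 CPM against at most 17.7 CPM in an epithelial sum. St3gal1, a core 1 sialyltransferase, measured 15.2 and 8.87 CPM in lymphocytes, and Galnt3, Galnt5, Gcnt3, Chst4 and Fut2 had 0 UMIs there in both mice. Lymphocytes carried B4galt1 at 41.9 and 26.6 CPM, close to the enterocyte values.

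Several well-known enzymes matched the symbols but fell below 50 UMIs over all annotated cells. St6gal1, which adds alpha-2,6-linked sialic acid to N-glycans, had 28 UMIs, and St6galnac1 had 9. B3gnt6, the core 3 synthase, had 32 UMIs. Galnt2 had 1 UMI, beside 3991 for Galnt1, and St3gal5, which makes ganglioside GM3, had 1. These genes were named after their counts were seen.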
